A study of Rattus norvegicus with 12 samples.

Results

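Glutathione transferases are enzymes that join the tripeptide glutathione to electrophilic drugs, toxins and products of lipid peroxidation, which makes them more soluble and ready for export. The 10 genes described here are Gsta1, Gsta3 and Gsta4 of the alpha class, Gstm1, Gstm2, Gstm3 and Gstm4 of the mu class, Gstp1 of the pi class, and Gstt1 and Gstt2 of the theta class. They were chosen by name: a probe set belonged to a member when the platform's annotation gave it that gene and no other. All 10 were measured, each by 1 probe set, among 10411 genes in all.

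Burned rats were set against sham-treated rats 2, 4 and 7 days after thermal injury, 3 samples to a day, and their RNA was read on Affymetrix RAE230A arrays. Tissue, strain, sex, age and burn size are not in the labels. Nor do the labels tell whether the 3 samples of a day were separate animals, so p-values measure only the spread between these samples, which may be technical. Each sample is a pair of channels, thermal injury in channel 2 and sham in channel 1, for which the authors deposited 1 log2 ratio per probe set. No source states which channel is on top; injury over sham is likely from the channel labels, and every direction below rests on that reading. The 3 samples of day 1 were not used, because their identifiers do not match those of later days: recovered signals of a day 1 array and a later array had rank correlations of 0.00864 to 0.0295 over 27 pairs, against 0.717 to 0.763 over the 36 pairs among days 2, 4 and 7.

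In rat liver the alpha and mu enzymes are abundant, and the pi enzyme is known for its low level in normal hepatocytes and its high level in preneoplastic foci. Many transferase genes are induced through the antioxidant response element, a short DNA motif bound by the transcription factor NRF2 when its inhibitor KEAP1 is inactivated by electrophiles. The drug-sensing nuclear receptors CAR and PXR induce several of them as well. Enzymes that make, recycle and export glutathione and its conjugates act with the transferases in the same route.

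No tissue is labelled, so there was no label to check markers against. Of 15 listed hepatocyte markers 13 were measured, and their brightness, the median over the 9 arrays of log2 of the smaller recovered signal, lay between 13.93 and 15.34. The signals at these medians exceed 10000, the limit up to which recovery was checked against randomly shifted values. The range shows at most that these probe sets gave signal: brightness is known in lowest terms, depends on the probe set, and does not compare the levels of genes. Among the members, Gstm2, Gsta1, Gstm1 and Gsta4 stood at percentiles 99.5, 99.3, 99.0 and 98.0 of brightness over all probe sets, Gstt2, Gstm4, Gstt1 and Gstp1 between 78.1 and 91.0, Gsta3 at 49.5 and Gstm3 at 19.7. Gstm2, Gstm1 and Gsta4 had no recovered signals of up to 10000 in any sample, and Gsta1 had them in few. The order of these members among the brightest probe sets therefore carries no meaning. In a bulk sample, fewer cells of a type and less RNA per cell cannot be told apart.

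The promoter windows of RefSeq (GRCr8), which run from 250 bases before a gene's start to 50 after it, held 8 of the 10 genes; Gstt1 and Gstt2 were not matched. They were searched on both strands for the core of the antioxidant response element, TGACNNNGC, which occurs in 4038 of all 33469 windows (12.1%). It was found in windows of 3 of the 8 genes, shown here so that their values can be read beside those of members without it. Counted by window this is 3 of 9, as Gsta3 also has a window that lacks it. The match is 31 bases after the start in Gsta1, 17 bases before it in Gsta3 and 61 bases before it in Gstp1. The sequences are written 5′ to 3′ on the gene's strand, with the motif in capitals.
Gsta1, chr9:31216484-31216512, minus strand: aactcaggcaTGACTTTGCatttttcttc
Gsta3, chr9:31154962-31154990, plus strand: aactcaggcaTGACTTCGCattttttcct
Gstp1, chr1:210769748-210769776, minus strand: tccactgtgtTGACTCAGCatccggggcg

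Gsta4, Gstm1, Gstm2, Gstm3 and Gstm4 have no match in their window. Of these, Gstm2 and Gstm4 had the smallest adjusted p for the mean of the 3 days in limma's fit. They were picked with their values known, and the 250 bases before their starts are shown. They are mu genes of one cluster on chromosome 2, where the reference lists Gstm3, Gstm2, Gstm1 and Gstm4 in this order. No match says only that these letters are not in this window.
Gstm2, chr2:198316918-198317167, minus strand: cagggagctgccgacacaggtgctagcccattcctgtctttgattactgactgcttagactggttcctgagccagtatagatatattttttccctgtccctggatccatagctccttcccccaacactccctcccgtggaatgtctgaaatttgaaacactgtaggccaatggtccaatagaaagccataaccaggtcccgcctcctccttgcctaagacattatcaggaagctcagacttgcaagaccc
Gstm4, chr2:198373384-198373633, minus strand: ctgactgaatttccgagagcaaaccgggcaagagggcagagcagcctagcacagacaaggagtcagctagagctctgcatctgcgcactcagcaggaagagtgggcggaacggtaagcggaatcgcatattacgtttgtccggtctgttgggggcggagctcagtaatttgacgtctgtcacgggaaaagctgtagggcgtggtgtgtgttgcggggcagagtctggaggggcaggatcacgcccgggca

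Gstm2, a mu transferase, was lower in the injured rats at day 7. Its log2 ratios of injury over sham were -0.22, -0.26 and -0.095 at day 2, -0.0019, -0.14 and 0.069 at day 4, and -0.97, -1.07 and -1.05 at day 7. The 3 samples of day 7 lie close together and below all 6 samples of the earlier days. The day 7 mean of -1.03 ± 0.05 (SD, n = 3) is a ratio of 0.490 of injury to sham. In limma's fit across all genes it had an SE of 0.10, a 95% interval from -1.24 to -0.81 and an adjusted p of 0.00321, the smallest p of any gene at day 7. Over the 9 samples of the 3 days the mean was -0.42 (SE 0.06, 95% interval -0.54 to -0.29, limma's adjusted p = 0.0127), with 8 of 9 samples below 0. Without the dependence of the variance prior on brightness, limma's adjusted p was 0.0673 at day 7 and 0.124 for the mean. It was 0.0511 at day 7 without the first sample of day 7, 0.0590 without the third, and 0.0680 for the mean without the second sample of day 4.

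**Figure D1:**
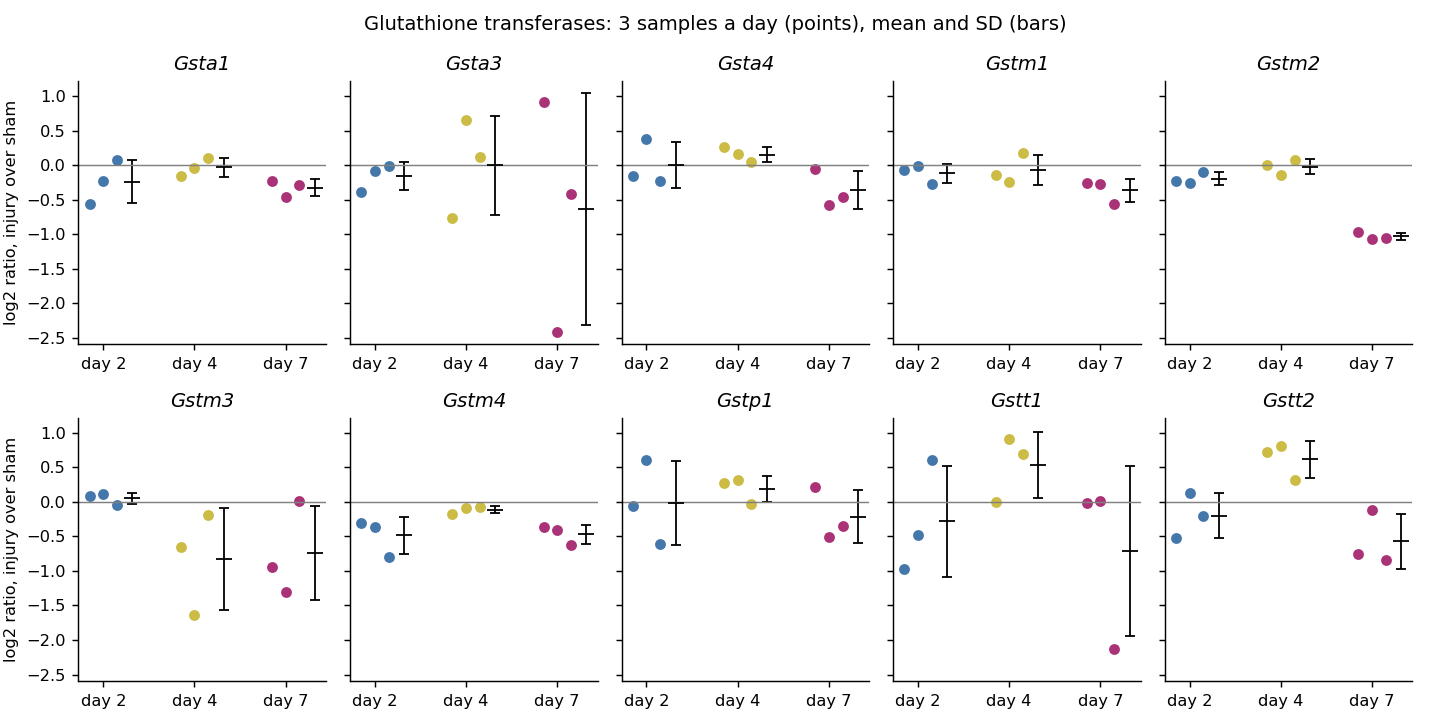
Log2 ratio of injury over sham (vertical axis) of each of the 10 transferase genes at days 2, 4 and 7. Points are the 3 samples of a day in sample order, bars the mean and SD. The day 7 samples of Gstm2 lie between -1.07 and -0.97, and those of Gsta3 between -2.42 and 0.92.

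The change of Gstm2 also differed between days. Day 7 minus day 4 was -1.003 (SE 0.14, 95% interval -1.30 to -0.70, limma's adjusted p = 0.0444). This call was lost when a sample was left out in 8 of 9 cases, with adjusted p up to 0.185. It was also lost without the variance trend, at an adjusted p of 0.223. Day 7 minus day 2 was -0.83 with an adjusted p of 0.175, and the comparison over the 3 days together gave an adjusted p of 0.0923.

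Gstm4, another mu gene, had a log2 ratio below 0 in all 9 samples. The values were -0.30, -0.36 and -0.80 at day 2, -0.17, -0.091 and -0.076 at day 4, and -0.37, -0.41 and -0.62 at day 7. The 3 samples of day 4 lie nearest to 0 and above all samples of the other days. The mean over the 9 samples was -0.36 (SE 0.07, 95% interval -0.50 to -0.21), a ratio of 0.781, with an adjusted p of 0.0595 in limma's fit, which did not pass. With the arrays not centred it was -0.35 with an adjusted p of 0.0434. The exact two-sided sign-flip test over the 9 samples, not adjusted for the 10 members, gave 0.00391, the smallest p that 9 samples can give. A value below 0 in all 9 samples occurred in 0.547% of all genes, and in at least 8 of 9 in 3.07%, a mark met by 3 members, Gstm1, Gstm2 and Gstm4. With centring along brightness 3 members were below 0 in all 9 samples (Gsta1, Gstm2 and Gstm4, against 0.624% of all genes) and 5 in at least 8 (against 3.44%).

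Gstm1 had log2 ratios of -0.064, -0.014 and -0.28 at day 2, -0.14, -0.25 and 0.18 at day 4, and -0.26, -0.28 and -0.56 at day 7. The samples of day 7 are lower than those of day 4, and 8 of 9 samples lie below 0. Its mean over the 3 days was -0.18 (SE 0.07) with an adjusted p of 0.378 in limma's fit. The exact sign-flip test gave an unadjusted p of 0.0273, and 0.0117 for Gstm2.

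Gstm3 was the dimmest member and, within the mu class, varied most between samples at days 4 and 7. Its values were 0.086, 0.11 and -0.039 at day 2, -0.65, -1.64 and -0.19 at day 4, and -0.94, -1.31 and 0.0093 at day 7. All samples of day 4 are below those of day 2, whereas those of day 7 overlap both. Its means of -0.83 ± 0.74 at day 4 and -0.75 ± 0.68 at day 7 (SD, n = 3 each) had adjusted p of 0.482 and 0.473 in limma's fit.

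Of the alpha genes, Gsta1 had log2 ratios of -0.56, -0.23 and 0.071 at day 2, -0.16, -0.045 and 0.11 at day 4, and -0.23, -0.46 and -0.29 at day 7. The samples of day 7 are below those of day 4 and overlap those of day 2. The mean at day 7 was -0.32 ± 0.12 (SD, n = 3), with an adjusted p of 0.325 in limma's fit. Over the 9 samples the exact sign-flip test gave an unadjusted p of 0.0313.

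Gsta4, which conjugates the lipid peroxidation product hydroxynonenal, had log2 ratios of -0.15, 0.38 and -0.24 at day 2, 0.26, 0.15 and 0.044 at day 4, and -0.052, -0.57 and -0.46 at day 7. Its day 7 samples are all below 0 and its day 4 samples all above. Day 7 minus day 4 was -0.51 (SE 0.20) with an adjusted p of 0.277 in limma's fit. Gsta3, a dimmer alpha gene, had -0.39, -0.078 and -0.015 at day 2, -0.77, 0.65 and 0.11 at day 4, and 0.92, -2.42 and -0.41 at day 7. The samples of day 7 span both the highest and the lowest of its 9 values, and its mean of -0.64 ± 1.68 (SD, n = 3) had an adjusted p of 0.640.

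Gstp1, the pi enzyme, had values of -0.058, 0.60 and -0.61 at day 2, 0.27, 0.32 and -0.034 at day 4, and 0.22, -0.51 and -0.35 at day 7. The samples of the 3 days overlap, and 5 of 9 lie below 0. Its mean over the 3 days was -0.018 (SE 0.12, 95% interval -0.28 to 0.24). With Gsta1 and Gsta3 it is one of the 3 genes with a window that holds the motif printed above. The means of these over the 3 days were -0.20 for Gsta1, -0.27 for Gsta3 and -0.018 for Gstp1, and those of the 5 members whose windows lack it were -0.07 for Gsta4, -0.18 for Gstm1, -0.42 for Gstm2, -0.51 for Gstm3 and -0.36 for Gstm4. With so few genes this says nothing of the motif.

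Both theta members had their lowest mean at day 7 and their highest at day 4. Gstt3, a theta gene outside the members, named here after its values were seen, had its lowest mean at day 4. Its means were 0.22 at day 2, -0.72 at day 4 and -0.068 at day 7. Gstt2 had log2 ratios of -0.52, 0.14 and -0.21 at day 2, 0.72, 0.80 and 0.31 at day 4, and -0.75, -0.11 and -0.85 at day 7. All 3 samples of day 4 are above 0 and above every sample of day 2 and day 7, and all 3 of day 7 are below 0. The means were -0.57 ± 0.40 at day 7 and 0.61 ± 0.26 at day 4 (SD, n = 3 each). Day 7 minus day 4 was -1.18 (SE 0.23, 95% interval -1.69 to -0.67) with an adjusted p of 0.0657 in limma's fit. It passed in 3 of 18 alternatives, at 0.0498 with dim probe sets left out, at 0.0487 with array weights and at 0.0370 without the second sample of day 7, and the adjusted p was as high as 0.2502 in the others. Gstt1 had -0.97, -0.48 and 0.60 at day 2, 0.0026, 0.91 and 0.69 at day 4, and -0.022, 0.015 and -2.13 at day 7. Its samples of day 7 overlap those of the other days. The third sample of day 7 is the lowest of its 9 values, and the mean of that day was -0.71 ± 1.23 (SD, n = 3).

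**Figure D2:**
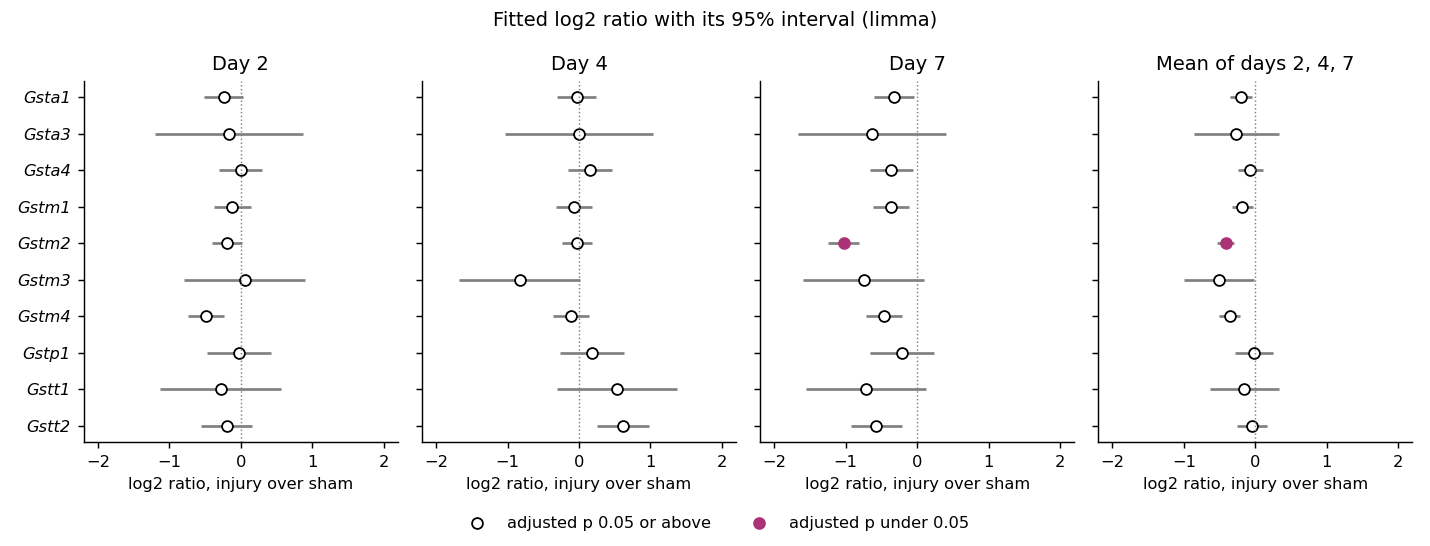
Log2 ratio of injury over sham fitted with limma (horizontal axis), with its 95% interval, for each gene at days 2, 4 and 7 and for the mean of the 3 days. Filled points have an adjusted p under 0.05 over all 10411 genes; they are Gstm2 at day 7 (-1.03) and for the mean (-0.42).

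At day 7 the mean log2 ratio was below 0 in all 10 members, with a median of -0.52, against 51.6% of all genes and a median of -0.01. One member, Gstm2, passed the threshold as lower, as did 0.0288% of all genes. An unadjusted p under 0.05 with a lower level was found in 6 of 10 members (Gsta1, Gsta4, Gstm1, Gstm2, Gstm4 and Gstt2) and in 6.97% of all genes. The same 6 had all 3 samples of day 7 below 0, as had 18% of all genes; with centring along brightness Gstm3 took the place of Gsta4. Members varied in the size of the difference, from -0.22 in Gstp1 to -1.03 in Gstm2. When a sample was left out, Gstp1 ranged from -0.43 to -0.066, Gstt1 from -1.08 to -0.0034 and Gsta3 from -1.42 to 0.25, against -1.06 to -1.01 in Gstm2.

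Beside these values, other measures of the samples also differed from 0 at day 7. Genes at least as bright as the eighth brightest member, 2468 genes in all, had a median of -0.12 at day 7, with 70.5% of them below 0 and 17.1% lower at an unadjusted p under 0.05. All 13 measured hepatocyte markers had a mean below 0 at day 7, with a median of -0.18; their medians in the 3 samples were -0.21, -0.11 and -0.35. As a measure of RNA quality in injury relative to sham, the log2 ratio of the 5′ control probe set was subtracted from that of the 3′ one. A negative value means a lower 3′ to 5′ signal in injury than in sham. It was -0.88, -0.44 and -0.88 for actin and -0.39, -0.21 and -0.80 for GAPDH in the 3 samples of day 7. The 3 measured neutrophil markers of 8 listed had a median of 1.72, opposite in sign to the members. The part of these in the members' values was not tested. With each array centred along brightness, which sets the median of bright genes near 0, all 10 members were below 0 at day 7 with a median of -0.42, and Gstm2 was at -0.86 with an adjusted p of 0.00577 in limma's fit. Under that centring 4 members, Gstm2, Gstm3, Gstm4 and Gstt2, were lower at an unadjusted p under 0.05, in place of 6. Gsta1 was then at -0.16, Gsta4 at -0.21 and Gstm1 at -0.21.

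At day 2, 9 of 10 members had a mean below 0 with a median of -0.18, and none passed limma's threshold, against 0.144% of all genes. Gstm4 was the 1 member with an unadjusted p under 0.05, at -0.49 ± 0.27 (SD, n = 3), where 3.74% of all genes were lower. With centring along brightness there were 3, Gsta1 (-0.31), Gstm2 (-0.27) and Gstm4 (-0.51). The 3′ minus 5′ values in the 3 samples of day 2 were -0.79, -0.31 and -0.061 for actin and -0.42, -0.19 and 0.11 for GAPDH. The medians of the members in these samples were -0.26, -0.046 and -0.15. The part of RNA quality in the day 2 values was not tested. At day 4, 6 of 10 were below 0 with a median of -0.01. None passed, as in 0% of all genes, and Gstt2 was the 1 member with an unadjusted p under 0.05, where 6.28% of all genes were higher. Gsta4, Gstt1 and Gstt2 had all 3 samples of day 4 above 0, as had 18.3% of all genes; without centring, and with centring along brightness, only Gstt2 of these members had. Exocrine pancreas markers, 13 measured of 15, had medians of -0.05, 2.62 and 1.38 in the 3 samples of day 4, beside 0.72, 0.80 and 0.31 for Gstt2. The 4 measured red cell markers of 8 had a median of 0.72 at day 4. The part of these in the day 4 values was not tested.

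Over the 3 days together, all 10 members had a mean below 0, with a median of -0.19, as had 49.5% of all genes. One member, Gstm2, passed as lower, against 0.163% of all genes, and 5 of 10 (Gsta1, Gstm1, Gstm2, Gstm3 and Gstm4) had an unadjusted p under 0.05, against 5.14%. With the arrays centred along brightness 9 of 10 were below 0, Gstp1 being at 0.00082.

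Most members were lower at day 7 than at day 4. In 6 of 10 members every sample of day 7 lay below every sample of day 4, against 11.1% of all genes; they are Gsta1, Gsta4, Gstm1, Gstm2, Gstm4 and Gstt2. The count was 4 without centring (Gsta4, Gstm2, Gstm4 and Gstt2, against 7.21%) and 3 with centring along brightness (Gstm2, Gstm4 and Gstt2, against 9.74%). With that centring day 7 minus day 4 was -0.038 in Gsta1 and -0.047 in Gstm1, against -0.29 and -0.30 as centred on the median. In Gstm2 alone every sample of day 7 lay below every sample of day 2, against 7.15% of all genes; with centring along brightness Gstm3 joined it. In 2 members, Gstm4 and Gstt2, every sample of day 4 lay above every sample of day 2, against 7.38%. The 1 call in day 7 minus day 4 was Gstm2, where 0.0192% of all genes passed as lower. An unadjusted p under 0.05 was found in 4 of 10 (Gsta4, Gstm2, Gstt1 and Gstt2), against 8.08%, and in 2 with centring along brightness (Gstm2 and Gstt2). Of the 2468 bright genes 70.3% were below 0 in this comparison and 21.8% were lower at an unadjusted p under 0.05. The 3′ minus 5′ values of actin were -0.88, -0.44 and -0.88 at day 7, against -0.35, 0.38 and 0.23 at day 4, and those of GAPDH -0.39, -0.21 and -0.80 against 0.14, 0.31 and -0.081. Their part in the difference was not tested. None of the members passed in day 4 minus day 2 (0% of all genes), in day 7 minus day 2 (0%) or in the difference among the 3 days (0.0192%). At an unadjusted p under 0.05 the first had 2 members higher against 4.26% of genes, the second 1 lower against 4.97%, and the last 2 against 12.1%.

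Across the 9 samples the 45 pairs of members had a median Pearson correlation of 0.41, from -0.50 to 0.89, and 39 of the 45 were above 0. The correlations are a description: the samples share days, and pairs of members share each array and its centring. The 3 alpha pairs had a median of 0.52, the 6 mu pairs 0.32, and Gstt1 with Gstt2 had 0.66. The highest value was that of Gsta4 with Gstp1, of different classes. Gstm3, the dimmest member, was below 0 with 5 of the other 9, and between 0.05 and 0.23 with the remaining 4.

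**Figure D3:**
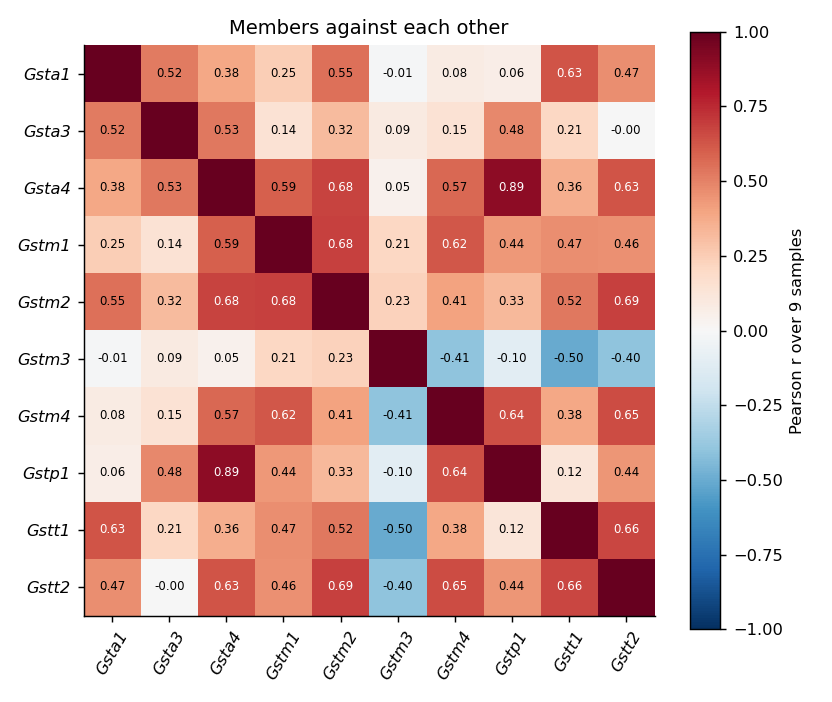
Pearson correlation of the log2 ratios of 2 members over the 9 samples, for each pair of the 10 genes. The highest is 0.89 for Gsta4 and Gstp1 and the lowest -0.50 for Gstm3 and Gstt1.

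Of the other 10401 genes, the 5 most like the median of the members over the 9 samples were Naa38 (r = 0.985), an N-terminal acetyltransferase subunit, Naca (0.982), a chaperone of nascent chains, Ntan1 (0.975), an N-terminal asparagine amidase, Hspe1 (0.967), a mitochondrial chaperonin, and Timm8b (0.966), a mitochondrial import protein. Each had its lowest mean at day 7 and its highest at day 4, which follows from picking them by likeness to the members' median. For Timm8b these were -0.46 at day 7 and 0.71 at day 4. The correlation does not compare levels. Naa38 had means of 0.22, 0.51 and -0.28 at days 2, 4 and 7. The medians of the members' means on these days were -0.18, -0.01 and -0.52.

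A list of 21 further genes held transferases outside the 10 and relatives of the microsomal and prostaglandin synthase kind, some of which, such as Alox5ap and Ptges, are not glutathione transferases. Of these 13 were measured and 0 passed limma's threshold in a comparison. At day 7, 8 of 13 were below 0 with a median of -0.09, where 51.6% of all genes and 70.5% of the bright genes were, and 4 were lower at an unadjusted p under 0.05, where 6.97% of all genes were. At that p 1 gene of the list was higher. The 5 above 0, named here after their values were seen, were Alox5ap, Hpgds, Ltc4s, Ptges and the mu gene Gstm5 (0.048). Gstm7, a mu gene, had means of -0.92 ± 0.58 at day 7 and 0.33 ± 0.16 at day 4 (SD, n = 3 each). Mgst2, a microsomal transferase, had -0.61 ± 0.29 at day 7 and 0.28 ± 0.01 at day 4. Their day 7 values had adjusted p of 0.125 and 0.138. Gstz1, which also acts in tyrosine breakdown, had a mean of -0.15 (SE 0.07) over the 3 days with 8 of 9 samples below 0.

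Genes of glutathione synthesis, recycling, breakdown and export (34 measured of 40) had 29 members below 0 at day 7, with a median of -0.24, and 0 passed limma's threshold. An unadjusted p under 0.05 was found in 11 at day 7, all lower. Beside these 29 and 11 of 34, 51.6% of all genes were below 0 and 6.97% lower at that p, and 70.5% and 17.1% of the bright genes. Slc3a2, a subunit of the cystine transporter, was below 0 in all 9 samples with a mean of -0.28 (SE 0.05, adjusted p = 0.0673). Nat8, which completes mercapturic acids from the conjugates, had a mean of -0.36 (adjusted p = 0.192), and Oplah, an enzyme of the glutathione cycle, was at -0.60 ± 0.27 at day 7 (SD, n = 3; adjusted p = 0.249). These adjusted p are from limma.

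**Figure D4:**
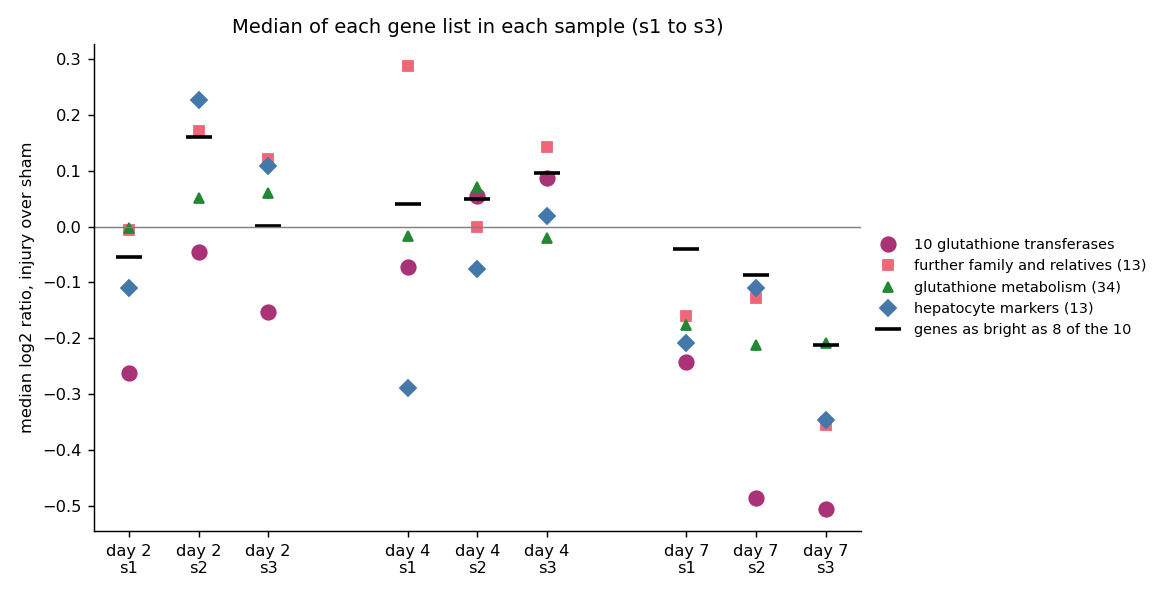
Median log2 ratio of injury over sham (vertical axis) of each gene list in each of the 9 samples: the 10 transferases, the 13 measured genes of the list of further transferases and relatives, 34 glutathione metabolism genes, 13 hepatocyte markers, and the 2468 genes as bright as 8 of the 10. In the 3 samples of day 7 the median of the 10 members was -0.24, -0.49 and -0.51, and that of the bright genes -0.04, -0.09 and -0.21.

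Of the NRF2 pathway and its known targets, 23 of 31 were measured, and 17 were below 0 at day 7 with a median of -0.31. Of all genes 51.6%, and of the bright genes 70.5%, were below 0 at day 7. At an unadjusted p under 0.05, 6.97% of all genes and 17.1% of the bright genes were lower. Of the 23 genes of the list, 8 were lower at that p and 1 was higher. Akr7a3, an aldehyde reductase that detoxifies aflatoxin aldehydes, was the 1 gene that passed: it was lower at day 7 (-0.88 ± 0.16, SD, n = 3, adjusted p = 0.0152) and over the 3 days (-0.58, SE 0.06, adjusted p = 0.00465), with 9 of 9 samples below 0. Without the variance trend its adjusted p was 0.144 at day 7 and 0.0935 over the 3 days, and leaving out a sample of day 7 gave 0.0718, 0.0571 and 0.162 at day 7. Ephx1, the microsomal epoxide hydrolase, had a mean of -0.36 (adjusted p = 0.156) and Ugdh, which makes the glucuronic acid donor, -0.52 ± 0.18 at day 7 (SD, n = 3; adjusted p = 0.146). Of the drug-sensing receptors, their partners and targets, 18 of 24 were measured, 10 above and 8 below 0 at day 7, and 0 passed. Nr1i3, the receptor CAR, had a mean of -0.47 (adjusted p = 0.0992), and Hnf4a, a liver nuclear receptor, was at 0.94 ± 0.33 at day 7 (SD, n = 3; adjusted p = 0.0724). These adjusted p are from limma.

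Transferases of a class are close in sequence. The probe sequences were not used here, so how far a probe set also measures a relative was not tested.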

How the data were processed

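Affymetrix RAE230A arrays compared RNA of burned and sham-treated rats. The authors deposited 1 log2 ratio per probe set and sample. How they scaled the arrays, and with which software and genome, is not given in the sources used here. Control probe sets (57 of 15923) were left out. The platform's annotation gave 12783 of the remaining 15866 probe sets 1 symbol, 312 several and 2771 none, and 12748 had a gene ID in the RefSeq table (GRCr8). Probe sets of a gene were averaged, which gave 10411 genes. The median of each array of days 2, 4 and 7 (from -0.13 to 0.16) was subtracted from its values.

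The 9 arrays were fitted with limma 3.58.1 in R 4.3.3 (lmFit, a mean per day, 6 residual degrees of freedom; eBayes with the prior following brightness), with Benjamini-Hochberg adjustment over all genes and a threshold of 0.05. The number of arrays limits the precision. Brightness came from each deposited ratio, written as a quotient of 2 whole numbers of up to 200000 by continued fractions, with a tolerance of 1e-09. With numbers of up to 10000, 88.8% to 89.5% of an array's ratios were recovered, against 2.79% to 3.47% of randomly shifted values. Above 10000 no shifted values were tried, so a quotient found there may not be that of the true signals. All recovered signals are in lowest terms. The Pearson correlation of 2 arrays' ratios lay between -0.11 and 0.15. Each member was also tested with an exact two-sided sign-flip test over the 9 samples.

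The members, the 4 pathway lists and the 11 lists of cell markers were chosen with earlier results of these data known. Every member was named. From each pathway list, genes past the threshold, or otherwise the 2 with the smallest p for the mean and the 2 at day 7, were named, and the 5 genes most like the members' median. Alternatives changed the centring, the normalization, the prior, the filter on dim probe sets, the probe sets of a gene, the array weights, the block and the samples; centring along brightness was added after seeing the data. Other marker lists gave medians at day 7 of -0.28 (bile duct, 6 genes), 0.04 (macrophage, 8), -0.22 (stellate cell and fibroblast, 10), -0.39 (endothelium, 5), -0.14 (exocrine pancreas, 13), 0.32 (red cell, 4), 0.35 (kidney, 5), 0.20 (skeletal muscle, 6) and 0.19 (skin, 5).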

Additional observations from a re-analysis of the deposited data

Results flagged for a closer look

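Day 7 and day 4 are given here for 3 members. In Gstm2 day 7 minus day 4 was -1.003 and passed, with a limma adjusted p of 0.0444, a call that held in 6 of 18 alternatives. In Gstt2 it was -1.18: every sample of day 7 was below 0 and every sample of day 4 above it, and the adjusted p of 0.0657 did not pass. In Gsta4 the samples were split by 0 in the same way and the difference of -0.51 did not pass, with an adjusted p of 0.277. The split in Gsta4 was lost without centring and with centring along brightness, where the difference was -0.27, while that in Gstt2 held under both. With 3 samples a day no sample was tested as an outlier.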

How the results depend on the processing

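The number of members past the threshold was 1 at day 7, and it was 0 without the variance trend and between 0 and 1 when each sample was left out. For the mean of the 3 days it was 1; it was 2 without centring, 0 without the trend, 2 with the arrays centred along brightness, and between 0 and 1 with a sample left out. For day 7 minus day 4 it was 1; it was 0 without the trend, with the brightest probe set of a gene, with the replicate block and with centring along brightness, 2 with dim probe sets left out and with array weights, and between 0 and 2 with a sample left out. For the difference among days it was 0, and 1 with a robust prior and with dim probe sets left out. Gstm2 passed in 15 of 18 alternatives at day 7, 16 of 18 for the mean and 6 of 18 for day 7 minus day 4, and kept its sign in all of them. Some of the 18 could not move its day 7 mean: leaving out a sample of day 2 or day 4, and taking the brightest probe set. Leaving out the first or the third sample of day 7 lost its day 7 call. Gstm4 passed for the mean in 2 of 18, without centring and with centring along brightness (adjusted p of 0.0465). Gstm3 gave no value with dim probe sets left out. Akr7a3 passed in 13 of 18 at day 7 and 17 of 18 for the mean, but leaving out any sample of day 7 lost its day 7 call.

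The labels do not say whether the sample numbers pair samples across days. Deviations of same-numbered samples correlated between -0.041 and 0.068, which shows no shared shift but cannot tell whether they were paired. With the number as a replicate block, Gstm2 lost its call for day 7 minus day 4 (adjusted p = 0.0644) and Akr7a3 at day 7 (0.0640).

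Values that did not pass changed sign as follows. Leaving out a sample moved day 2 of Gsta4 between -0.19 and 0.11, Gstp1 between -0.33 and 0.27 and Gstt1 between -0.73 and 0.060. It moved day 4 of Gsta1 between -0.10 and 0.031, Gsta3 between -0.33 and 0.38, Gstm1 between -0.20 and 0.019 and Gstm2 between -0.073 and 0.033, and day 7 of Gsta3 between -1.42 and 0.25. It moved the mean of Gsta3 between -0.53 and 0.030, Gstp1 between -0.12 and 0.080, Gstt1 between -0.30 and 0.083 and Gstt2 between -0.13 and 0.0025. For day 4 minus day 2 the ranges were -0.17 to 0.54 in Gsta3, -0.076 to 0.14 in Gstm1 and -0.088 to 0.52 in Gstp1. For day 7 minus day 2 they were -0.25 to 0.068 in Gsta1, -1.25 to 0.42 in Gsta3, -0.14 to 0.11 in Gstm4, -0.49 to 0.12 in Gstp1 and -0.79 to 0.28 in Gstt1, and for day 7 minus day 4 -1.41 to 0.26 in Gsta3 and -0.32 to 0.40 in Gstm3. Gsta3 at day 4 was 0.018 with quantile normalization, 0.018 with array weights and 0.019 with centring along brightness. That centring also gave 0.00082 for the mean of Gstp1, 0.15 for day 7 minus day 2 of Gsta1 (0.032 without centring) and -0.094 for day 7 minus day 4 of Gstm3. The cause of these changes was not tested. The number of arrays, 3 a day, limits all of them.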

Other observations

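A probe set that the annotation gives to a pair of alpha genes, and which therefore belongs to no member, had log2 ratios of -0.014, 0.15 and -0.70 at day 2, 0.044, -0.021 and -0.20 at day 4, and -0.52, -0.54 and -0.997 at day 7. Its 3 samples of day 7 are below those of day 4, and they overlap those of day 2.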
